A study of Mus musculus with 6 samples.

Results

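The genes described are those of the egg coat and of sperm binding at the egg surface: Zp1, Zp2 and Zp3, which encode the 3 glycoproteins of the mouse zona pellucida, Astl, Cd9, and Folr4, the older symbol of Izumo1r. They were taken by symbol from the deposited expression table, where all 6 have a row out of 23235, and all 6 were among the 12029 genes tested. Values came from fully grown oocytes at the germinal vesicle (GV) stage, arrested in meiotic prophase, of C57BL/6 mice. There were 3 wild-type (WT) libraries and 3 from Rtcb knock-out (KO) oocytes. Each library held 10 oocytes, collected after hormone priming with PMSG in both genotypes. The promoter driving the deletion and the deleted part of Rtcb are not given in the sources used. The mice's age is not given beyond the tag 6W in all 6 sample titles, which the labels do not explain. No label ties the libraries of a genotype to separate animals, so every p-value reflects library-to-library spread, part of which may be technical.

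The zona pellucida is the extracellular coat that a growing oocyte secretes around itself. ZP3 and ZP2 are its main structural proteins, and ZP1 cross-links their filaments. Sperm bind to the coat through the N-terminal part of ZP2. After fertilization ovastacin, the protease encoded by Astl and released from cortical granules, cleaves ZP2, and sperm no longer bind. At the egg's plasma membrane JUNO, the GPI-anchored receptor encoded by Folr4, binds IZUMO1 of the sperm, and the tetraspanin CD9 is needed for the membranes to fuse. FIGLA, a basic helix-loop-helix factor of oocytes, acts through an E-box in the promoters of the zona genes.

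The promoter sequences are shown because they carry the E-box letters CANNTG, where N is any base. RefSeq entries (build GRCm38.p6) matched 4 of the 6 genes, Zp3, Astl, Cd9 and Izumo1r. The 250 bases before the annotated start are printed for 3 of them, on the strand of the gene, with every CANNTG in capitals. The Astl entry is the downstream one of its 2 annotated starts.
Zp3, chr5:135979855-135980104, plus strand: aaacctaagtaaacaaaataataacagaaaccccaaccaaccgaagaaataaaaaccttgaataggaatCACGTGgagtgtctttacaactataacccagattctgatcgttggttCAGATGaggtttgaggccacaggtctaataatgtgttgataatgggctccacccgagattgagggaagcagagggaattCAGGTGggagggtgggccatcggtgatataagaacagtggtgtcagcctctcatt
Astl, chr2:127341386-127341635, plus strand: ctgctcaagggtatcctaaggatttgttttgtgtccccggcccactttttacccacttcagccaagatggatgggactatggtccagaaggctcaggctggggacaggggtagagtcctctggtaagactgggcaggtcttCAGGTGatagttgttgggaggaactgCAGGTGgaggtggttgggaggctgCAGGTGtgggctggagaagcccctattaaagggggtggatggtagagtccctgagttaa
Cd9, chr6:125494761-125495010, minus strand: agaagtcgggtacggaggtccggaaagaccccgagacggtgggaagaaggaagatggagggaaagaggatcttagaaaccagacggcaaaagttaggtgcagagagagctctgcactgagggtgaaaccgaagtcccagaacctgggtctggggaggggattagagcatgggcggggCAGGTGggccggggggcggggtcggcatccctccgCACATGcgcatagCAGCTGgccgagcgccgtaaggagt

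The motif CANNTG reads the same on both strands. It occurred 3 times in the Zp3 window, with first bases 181, 134 and 55 bases before the start. The downstream Astl window held it 3 times, each with the letters CAGGTG, at 109, 83 and 59 bases, and the Cd9 window 3 times, at 73, 38 and 25 bases. Izumo1r held 1 match (CACCTG, 57 bases before the start) and the upstream Astl start 0. Of 32851 RefSeq promoter windows of the same length, 66.2% held at least 1 match and 12.2% at least 3, so the motif is common. The TATA box letters TATAAA, searched on both strands, had 0 matches in the 5 windows of these genes, against 12.4% of all windows. Only these exact letters were counted, so near matches, such as tataag in the printed Zp3 window, were not. The homeodomain core TAATTG also had 0 matches, against 7.17% of all windows. The Zp3 window had a GC content of 43.6% and the Cd9 window 61.6%, against a median of 52.4%. In the GENCODE vM21 annotation the 6 genes lie on 6 chromosomes (Zp1 on 19, Zp2 on 7, Zp3 on 5, Astl on 2, Cd9 on 6, Izumo1r on 9), and their longest coding transcripts have between 5 exons (Izumo1r) and 18 exons (Zp2).

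Rtcb itself, listed as D10Wsu52e, lay between 113 and 136 FPKM (fragments per kilobase of transcript and per mapped-fragment total) in WT and between 2.49 and 3.82 FPKM in KO. All 10 oocyte markers were tested, 8 fell and 0 rose by limma (0 higher at an unadjusted p under 0.05 too), with Oosp1 and Mos not called. With the genotype factors described below removed, 2 rose and 4 fell, and with equal library totals 1 rose and 5 fell. Over all tested genes 54.0% were lower and 9.29% higher as deposited. With the factors removed these shares were 18.0% and 25.7%, and with equal totals 25.8% and 19.0%. The 3 markers of smallest p were Kit (from 95.3 ± 11.3 to 28.7 ± 3.72 FPKM), Nlrp5 (from 527 ± 137 to 132 ± 36.5 FPKM) and Padi6 (from 3392 ± 689 to 746 ± 152 FPKM). The 10 markers summed to values lying between 27630 and 30601 FPKM in WT and between 17929 and 18363 FPKM in KO. Of 14 cumulus and granulosa markers 5 were tested, and the list summed to between 56.9 and 65.1 FPKM in WT and between 45.8 and 56.5 FPKM in KO. Cyp19a1, the aromatase gene, fell from 37.5 ± 2.17 to 19.8 ± 2.34 FPKM, but was not called without the genotype factors described below (adjusted p = 0.0565), and Nr5a2 rose from 9.45 ± 1.88 to 13.4 ± 1.08 FPKM, a call lost in 4 of 6 single omissions (adjusted p up to 0.0986). Inha was not called, and Ptx3, a cumulus matrix gene, was listed at 0 in every library. Of the 7 blood and immune markers 1 was tested and 0 were called by limma (1 lower at an unadjusted p under 0.05), and they summed to between 2.88 and 4.84 FPKM in WT and between 0.879 and 8.65 FPKM in KO, with Hbb-b1, Hba-a1 and Cd79a at 0. The part of these cells in the results was not tested. Levels are spike-in (ERCC) normalized FPKM as mean ± SD with n = 3 libraries. They are per length, so levels of different genes can be compared. Read depth is unknown.

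As deposited, limma called 5 of the 6 genes lower in Rtcb KO oocytes and 0 higher, with adjusted p under 0.05 as the threshold (0 higher at an unadjusted p under 0.05 too). The same 5 had no overlap between genotypes, which 57.5% of tested genes showed toward lower and 10.2% toward higher KO values. Over all tested genes 54.0% were called lower and 9.29% higher, and among the 2063 genes averaging 100 FPKM or more, where all 6 lie, 66.0% were lower and 3.78% higher. Zp1, Zp2 and Astl fell by 2.01-fold to 2.21-fold, Zp3 and Folr4 by less, and Cd9 was not called. A count of 5 of 6 is thus near what strongly expressed genes show in general. The members' median log2 fold change was −0.85, against −0.47 for all tested genes and −0.48 for those of at least 100 FPKM. In such pools, fewer intact oocytes and less RNA per oocyte cannot be told apart.

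**Figure D1:**
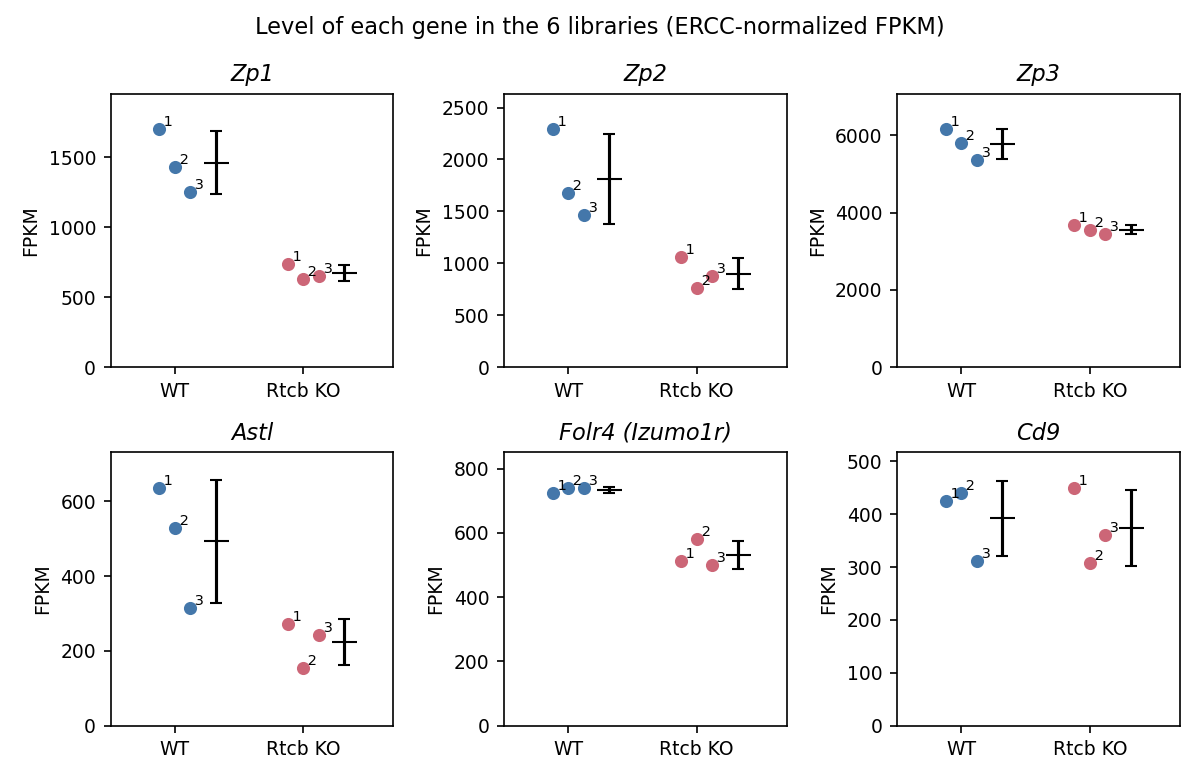
Level of each gene in FPKM (vertical axis, from 0) in the 3 WT and 3 Rtcb KO libraries (points, numbered by replicate), with mean and SD (bars). For Zp1, Zp2, Zp3, Astl and Folr4 every KO library lies below every WT library, while the Cd9 groups overlap.

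Zp3, the most abundant of the 6 and the main partner of ZP2 in the filaments, was at 6162, 5813 and 5376 FPKM in WT 1, WT 2 and WT 3 and at 3675, 3543 and 3448 FPKM in KO 1, KO 2 and KO 3. The groups were far apart relative to the spread of each. The WT mean of 5784 ± 394 FPKM and the KO mean of 3555 ± 114 FPKM gave a 1.63-fold fall, at a log2 fold change of −0.70 with SE 0.092 (adjusted p = 0.000442, limma). Of all tested genes 33.5% had a lower fold change than Zp3.

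Zp2, whose protein carries the site of sperm binding, was at 2292, 1681 and 1463 FPKM in WT and at 1062, 761 and 876 FPKM in KO. WT 1 stood above the other WT libraries and KO 1 above the other KO libraries, and the groups did not overlap. The mean fell 2.01-fold, with a WT mean of 1812 ± 429.6 and a KO mean of 899.9 ± 152 FPKM (log2 fold change −0.996, SE 0.184; adjusted p = 0.00205, limma).

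Zp1, which encodes the cross-linking protein, was at 1699, 1429 and 1249 FPKM in WT and at 734, 632 and 649 FPKM in KO. The highest KO library lay far below the lowest WT library. From a WT mean of 1459 ± 226 FPKM it fell 2.17-fold to 672 ± 54.5 FPKM in KO (log2 fold change −1.11, SE 0.126; adjusted p = 0.000267, limma), and 10.2% of tested genes, or 7.42% of genes averaging 100 FPKM or more, had a lower fold change. Zp1, Zp2 and Zp3 together summed to between 8088 and 10152 FPKM in WT and between 4937 and 5471 FPKM in KO.

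Astl, which encodes the ZP2-cleaving protease ovastacin, was at 637, 530.2 and 314 FPKM in WT and at 273, 155 and 242 FPKM in KO. It was the most variable of the 6 between libraries of one genotype, with a coefficient of variation of 33.3% in WT and 27.4% in KO, and WT 3 lay close to KO 1. The mean fell 2.21-fold, with a WT mean of 494 ± 165 and a KO mean of 223 ± 61.04 FPKM (log2 fold change −1.12, SE 0.288; adjusted p = 0.01003, limma). Without WT 2 the adjusted p was 0.0367, the highest over the single omissions.

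Folr4, the gene of the sperm receptor JUNO, was at 724, 741 and 739.6 FPKM in WT and at 511, 579.7 and 500.2 FPKM in KO. The WT libraries agreed closely, with a coefficient of variation of 1.29%, and KO 2 was the highest of the KO libraries. The mean fell 1.39-fold, with a WT mean of 735 ± 9.49 and a KO mean of 530.5 ± 43.01 FPKM (log2 fold change −0.47, SE 0.0868; adjusted p = 0.00202, limma). That change equals the median of all tested genes to within 0.0017 on the log2 scale. The paralogs Folr1 and Folr2 had means of 0.255 and 0.127 FPKM in WT and 1.12 and 0.111 FPKM in KO.

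Cd9, the tetraspanin needed for fusion, was at 424, 440.4 and 311 FPKM in WT and at 450.0, 308 and 361 FPKM in KO. The groups overlapped, with WT 3 and KO 2 the low libraries. The means were 392 ± 70.9 and 373 ± 71.9 FPKM (log2 fold change −0.07, 95% confidence interval −0.48 to 0.33, limma adjusted p = 0.738). The median change of all tested genes lies at the lower end of that interval, and 83.5% of genes averaging 100 FPKM or more had a lower fold change than Cd9.

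**Figure D2:**
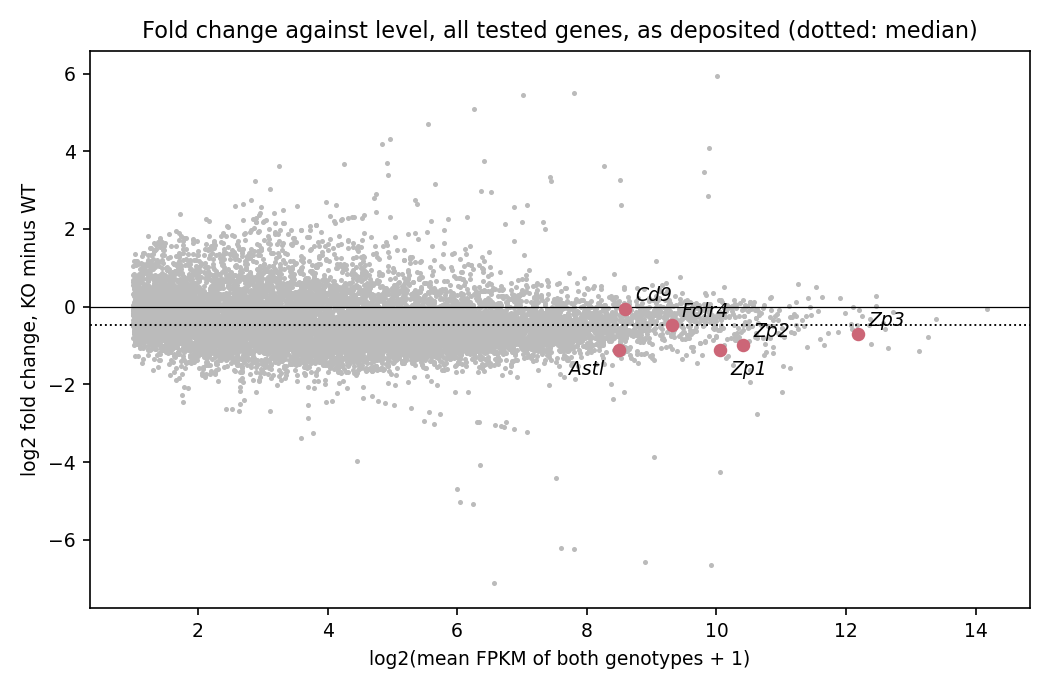
Log2 fold change (KO minus WT, as deposited, vertical axis) against log2 of the mean level plus 1 FPKM (horizontal axis) for the 12029 tested genes (grey) and the 6 genes (red), with the median of all tested genes dotted at −0.47. Zp1, Zp2 and Astl lie below the dotted line, Folr4 on it and Cd9 above it.

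The order of the 6 levels was the same in all 3 WT libraries: Zp3, Zp2, Zp1, Folr4, Astl, Cd9. Zp3 exceeded Zp2 by between 2.69-fold and 3.68-fold within a WT library. Zp2 and Zp1 (1.17-fold to 1.35-fold), and Astl and Cd9 (1.01-fold to 1.501-fold), had overlapping ranges over the WT libraries. In KO the order was Zp3, Zp2, Zp1, Folr4, Cd9, Astl in all 3 libraries, so Cd9 and Astl had exchanged places. Cd9 exceeded Astl by between 1.49-fold and 1.99-fold within a KO library.

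Ranks among all genes of a library do not move with a library's scaling. Zp3 ranked between 9 and 17 in WT and between 19 and 24 in KO, without overlap. Zp1 ranked between 88 and 175 in WT and between 227 and 315 in KO, without overlap, and Zp2 between 58 and 136 against 131 and 253, which overlap. Astl ranked between 362 and 873 in WT and between 668 and 1224 in KO, with overlap, and Folr4 between 300 and 347 against 353 and 381, without overlap. The share of all genes whose ranks did not overlap was not computed. Cd9 ranked between 587 and 877 in WT and between 414 and 629 in KO, with overlap. As a share of the summed FPKM, the 6 genes made up 0.817% ± 0.120 in WT and 0.645% ± 0.0584 in KO, and these shares overlapped because WT 3 (0.702%) lay below KO 1 (0.710%). Taken singly, the shares of Zp1 and Zp3 were lower in KO without overlap, as in 33.5% of tested genes (23.5% were higher without overlap), while those of Zp2, Astl, Folr4 and Cd9 overlapped.

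The fold changes rest on the scaling of the libraries. All WT columns carry 1 common factor of 2 and all KO columns 1 of 4/3, so the deposited values include a KO to WT ratio of 0.667. With both factors removed, Zp1 was the only one of the 6 called lower (log2 fold change −0.53, SE 0.126; adjusted p = 0.0126, limma), against 18.0% of all tested genes. This call was lost without KO 3 (adjusted p = 0.0528). Cd9 was then called higher (log2 fold change 0.51; adjusted p = 0.0461, limma), against 25.7% of all genes, a call that held in 1 of 6 single omissions, that of KO 2. Zp2 (−0.41, adjusted p = 0.104), Zp3 (−0.12, 0.347), Astl (−0.54, 0.163) and Folr4 (0.11, 0.321) were not called, and Folr4 had changed sign.

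With equal library totals, Zp1 (log2 fold change −0.68, limma adjusted p = 0.00734) and Zp3 (−0.27, 0.0442) were lower, against 25.8% of all genes, and 0 were higher, against 19.0% (0 higher at an unadjusted p under 0.05). Cd9 was at 0.36 and Folr4 at −0.04. With median-ratio rescaling Zp1 alone was lower (−0.60, adjusted p = 0.00717), against 21.7%, and 0 were higher, against 22.8% (1 higher, Cd9, at an unadjusted p under 0.05). Cd9 (0.44, 0.0643) and Folr4 (0.04, 0.738) were positive. Zp1 was lower under all 4 scalings, as were 2161 of the 12029 tested genes. Relative to the median of all genes under each scaling, Zp1 lay between −0.64 and −0.57 and Cd9 between 0.40 and 0.47.

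**Figure D3:**
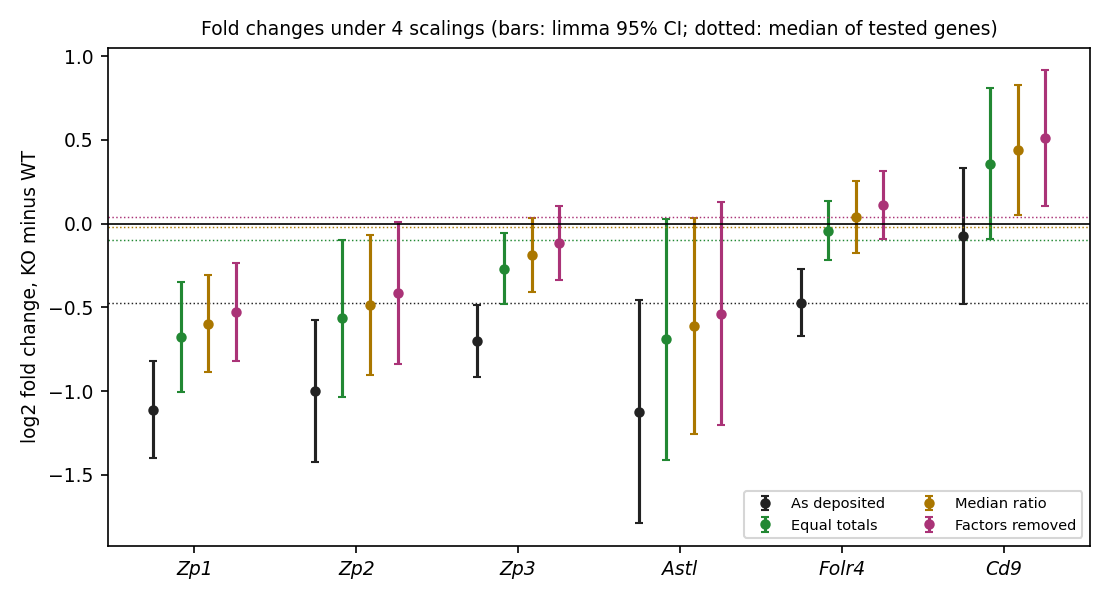
Log2 fold change (KO minus WT) of each gene as deposited, with equal totals, with median-ratio rescaling and with the genotype factors removed; bars are 95% confidence intervals from limma, and dotted lines mark the median of all tested genes under each scaling. The interval of Zp1 stays below 0 under all 4 scalings, while the value of Cd9 is −0.07 as deposited and 0.51 with the factors removed.

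Ratios between the genes within a library do not depend on scaling and set their changes side by side. For 7 of the 15 pairs the 3 WT ratios lay apart from the 3 KO ratios. Each of these had p = 0.1 (exact permutation test, two-sided), the smallest that 3 against 3 libraries can give, or 0.214 adjusted over the 15 pairs, so no pair could pass 0.05. The pairs share genes and are not independent counts. How often pairs of other genes lie apart in this way was not computed, so the count has no background.

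Among the zona genes, the ratio of Zp1 to Zp3 was 0.276, 0.246 and 0.232 in WT and 0.1997, 0.178 and 0.188 in KO. All KO ratios were lower, by 0.41 on the log2 scale between the means. The ratio of Zp1 to Zp2 overlapped between the genotypes (0.741 to 0.854 in WT, 0.691 to 0.83 in KO), as did that of Zp2 to Zp3 (0.272 to 0.372 in WT, 0.215 to 0.289 in KO). Zp1 and Zp2 were also the closest pair in their pattern over the 6 libraries.

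Against Cd9, the zona genes and Astl were lower in KO in every comparison of libraries. The ratio of Zp1 to Cd9 was 4.002, 3.25 and 4.02 in WT and 1.63, 2.05 and 1.80 in KO, and that of Zp2 to Cd9 was 5.399, 3.82 and 4.71 in WT and 2.36, 2.47 and 2.43 in KO. The mean log2 differences were −1.04 and −0.93. Astl to Cd9 differed by −1.05 and Zp3 to Cd9 by −0.63, again without overlap. For the 2 egg-surface genes, Cd9 to Folr4, the groups overlapped (0.4198 to 0.594 in WT, 0.531 to 0.880 in KO). The remaining pairs without overlap were Zp1 to Folr4, by −0.64, and Zp3 to Folr4, by −0.23.

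**Figure D4:**
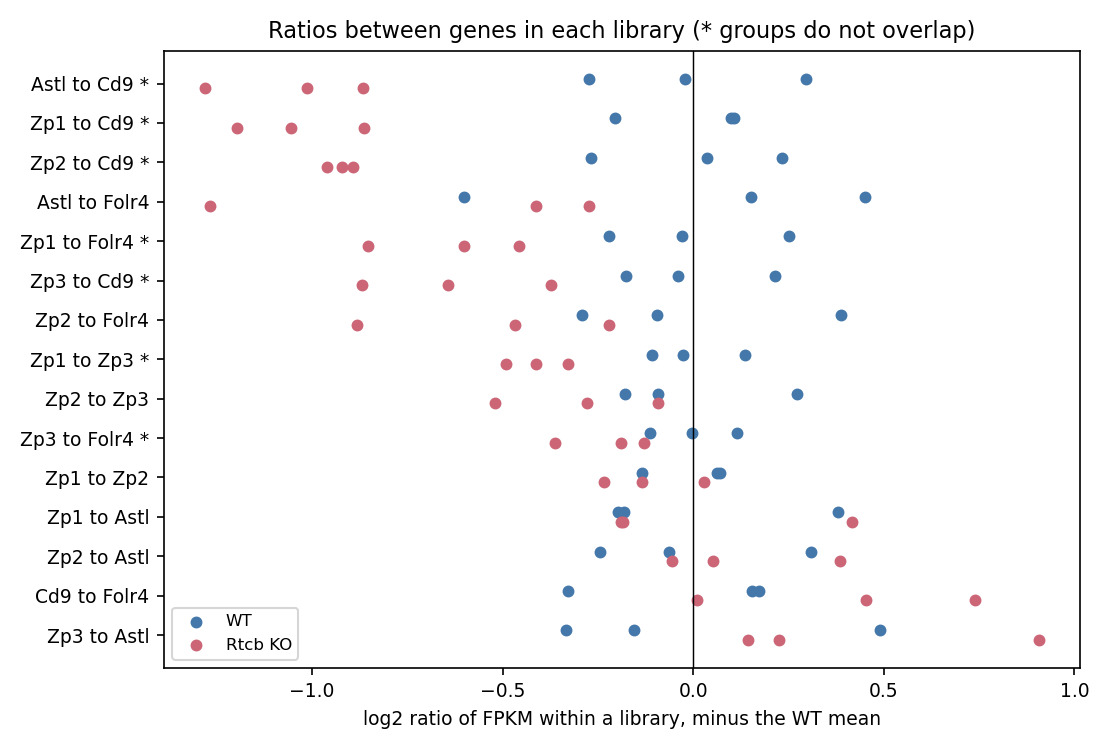
Log2 ratio of the FPKM of 2 genes within each library, minus the WT mean of that ratio (horizontal axis), for the 15 pairs in WT (blue) and Rtcb KO (red); an asterisk marks the 7 pairs whose groups do not overlap. In the 4 ratios of Zp1, Zp2, Zp3 or Astl to Cd9 all KO points lie to the left of all WT points.

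Libraries of one genotype also differed together. In WT 1 the zona genes and Astl were above their WT means and in WT 3 below them, by up to 0.43 and −0.59 on the log2 scale for Astl. Cd9 was low in WT 3 too (−0.32). In the KO group KO 1 was the highest for Zp1, Zp2, Zp3, Astl and Cd9, and KO 2 the lowest for these except Zp3. Folr4 differed, with KO 2 the highest (0.13). The cause was not tested.

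Over genes averaging 100 FPKM or more, without symbols of predicted genes, Rik and other clone names, microRNAs or snoRNAs, those of closest pattern were found by the root-mean-square distance between log2 values, each relative to the gene's own WT mean, over the 6 libraries and 1850 candidates. Close to Zp1 were Nlrp9a (distance 0.040) and Kpna7 (0.045). Zp2 lay nearest to Lpcat1 (0.064), Rpa1 (0.091) and Gdf9 (0.091), an oocyte growth factor whose level was 7089 ± 1456 FPKM in WT and 3618 ± 533 FPKM in KO. For Zp3 they were Fdft1 (0.022), Khdc1b (0.033) and Tsg101 (0.035), for Astl Hspa5 (0.099), Slc45a3 (0.141) and Puf60 (0.175), for Cd9 Morf4l2 (0.086), Ddx5 (0.111) and Naa20 (0.123), and for Folr4 Sumo2 (0.025), Brp44l (0.027) and Atp5c1 (0.035). The distances of Folr4 and Zp3 to their neighbours were smaller than those of Astl and Cd9. Leaving out single libraries kept between 0 and 3 of the 3 nearest genes (0 for Zp1 without KO 3).

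Regulators of the zona genes moved in both directions. Figla rose from 127 ± 13.5 to 171 ± 5.42 FPKM (log2 fold change 0.43, limma adjusted p = 0.00626; 1.01 with the factors removed). Tbpl2, an oocyte relative of the TATA-binding protein, rose from 16.98 ± 2.22 to 30.9 ± 4.67 FPKM. Tcf3, which encodes the E-protein partners of FIGLA, fell from 25.4 ± 5.58 to 12.2 ± 1.87 FPKM (limma adjusted p = 0.00242), a call lost with the factors removed (0.0954). Lhx8 fell from 319 ± 30.97 to 216 ± 30.4 FPKM but was at 0.02 on the log2 scale with the factors removed, and Sohlh2 fell from 7.24 ± 1.42 to 2.998 ± 0.227 FPKM. Of 9 tested regulators out of 10, 2 rose and 3 fell (5 and 1 with the factors removed). Their median log2 fold change, 0.40, is the value of Tcf4. Tcf4 averaged 0.876 FPKM in WT and passed the filter only through its KO values (1.47 FPKM). The values next to it in the list are −0.36 (Nobox) and 0.43 (Figla). The median thus rests on Tcf4 and is not set against that of all genes. Over all tested genes 9.29% rose and 54.0% fell, or 25.7% and 18.0% with the factors removed. The counts of the lists below stand beside these same shares. Tcf12, Tcf4, Nobox and Taf4b were not called, and Sohlh1 was too low to test.

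Other genes of the egg surface were mostly at lower levels than Cd9 and Folr4. Cd81, a tetraspanin related to Cd9, was at 3.75 ± 2.18 FPKM in WT and 1.47 ± 0.441 FPKM in KO (limma adjusted p = 0.0518). Among integrins, Itga9 fell from 97.7 ± 5.105 to 46.3 ± 6.59 FPKM (log2 fold change −1.07), Itgb3 from 11.01 ± 1.14 to 4.398 ± 0.161 FPKM and Itga6 from 72.6 ± 24.8 to 35.04 ± 4.92 FPKM. The tetraspanin Cd151 fell from 20.8 ± 2.69 to 11.1 ± 1.53 FPKM. The calls of Itga6 (adjusted p = 0.159) and Cd151 (adjusted p = 0.152) were lost with the factors removed. Ptgfrn, which encodes an immunoglobulin-superfamily partner of CD9, rose from 1.79 ± 0.337 to 4.34 ± 0.872 FPKM, and Itgav from 0.488 ± 0.06203 to 1.62 ± 0.601 FPKM. Itgav lay near the floor, at no more than 0.550 FPKM in WT, and passed the filter of 1 FPKM only through its KO values. Of 10 tested genes out of 13, 2 rose and 4 fell (4 and 2 with the factors removed), with a median of −0.63.

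JUNO reaches the membrane on a GPI anchor. Of 25 tested genes of GPI anchor synthesis out of 28, 2 rose and 16 fell (6 and 4 with the factors removed), with a median of −0.42, close to that of all genes. Among all tested genes 9.29% rose and 54.0% fell (25.7% and 18.0% with the factors removed). Pigq fell from 64.7 ± 4.91 to 28.0005 ± 2.798 FPKM, Pigk, of the transamidase, from 27.9 ± 0.937 to 12.5 ± 1.08 FPKM, and Piga, of the first step, from 25.9 ± 1.85 to 12.6 ± 0.948 FPKM. All 3 were also lower with the factors removed. Pigh rose from 4.28 ± 0.803 to 12.1 ± 4.64 FPKM and Pigl from 11.02 ± 1.98 to 15.9 ± 1.82 FPKM, the latter with its call lost in 4 of 6 single omissions (adjusted p up to 0.0905).

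Zona proteins are trimmed by proprotein convertases and glycosylated on their way out. Furin fell from 45.01 ± 4.83 to 25.2 ± 1.99 FPKM (limma adjusted p = 0.000682; not called with the factors removed, at 0.1296), and its relative Pcsk7 from 4.79 ± 0.647 to 1.998 ± 0.219 FPKM. Mgat1, needed for complex N-glycans, fell from 26.05 ± 7.75 to 11.999 ± 2.29 FPKM, but was not called once the factors were removed (adjusted p = 0.118). C1galt1c1, the chaperone of the core O-glycan galactosyltransferase, rose from 46.6 ± 5.54 to 100.5 ± 26.3 FPKM (log2 fold change 1.07, limma adjusted p = 0.00159). Of 6 tested genes out of 8, 1 rose and 3 fell (2 and 1 with the factors removed), with a median of −0.50.

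Ovastacin is released by exocytosis of cortical granules. Of 11 tested genes of that fusion machinery out of 15, 1 rose and 9 fell (1 and 3 with the factors removed), with a median of −0.58. The shares of all tested genes that rose and fell were 9.29% and 54.0% (25.7% and 18.0% with the factors removed). Nsf, the ATPase that recycles SNARE complexes, fell from 169.9 ± 15.5 to 64.6 ± 1.24 FPKM (log2 fold change −1.38, limma adjusted p = 0.000162), Rab3a from 64.3 ± 3.33 to 33.8 ± 0.9195 FPKM, and Syt1 from 10.8 ± 0.3998 to 4.92 ± 0.825 FPKM. These 3 were also lower with the factors removed. Vamp3, the only one that rose, went from 42.1 ± 6.77 to 54.7 ± 1.67 FPKM, with its call lost in 5 of 6 single omissions (adjusted p up to 0.0823).

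**Figure D5:**
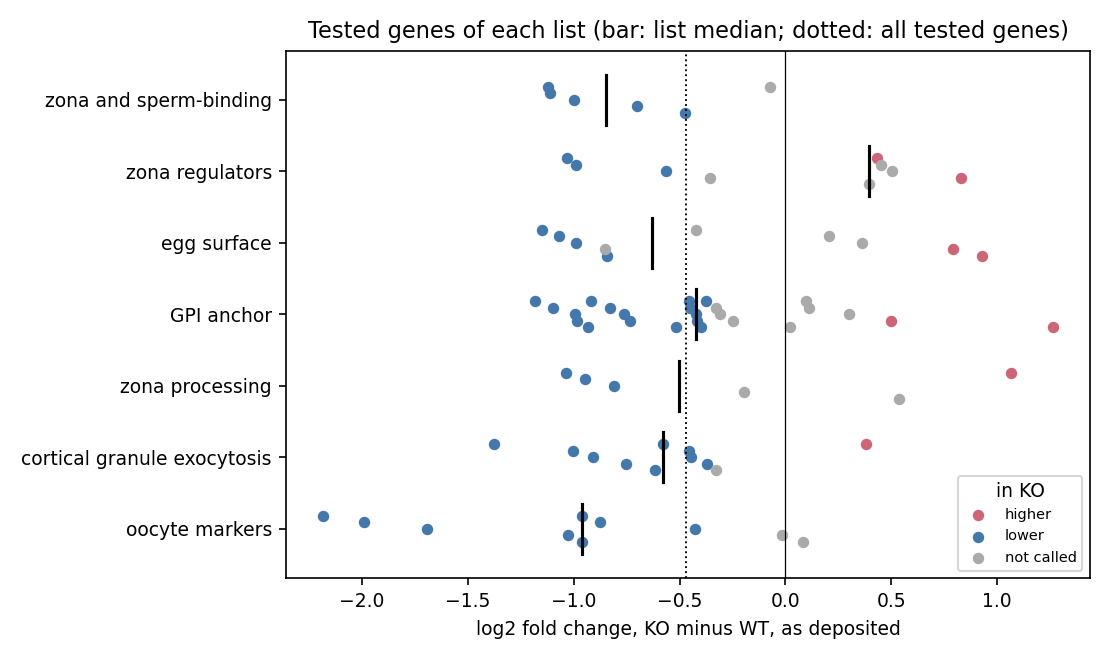
Log2 fold change (KO minus WT, as deposited) of each tested gene in the lists of the egg coat, its regulation, the egg surface, GPI anchoring, processing, exocytosis and oocyte markers; colours give the limma call, black bars the list median and the dotted line the median of all tested genes. Zona regulators have a median of 0.40, the value of Tcf4, which was not called and averaged 0.876 FPKM in WT. That median rests on Tcf4, since the values next to it are −0.36 (Nobox) and 0.43 (Figla). The median of the zona and sperm-binding genes is −0.85.

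Most relatives of these genes were at low levels. The list of 16 held genes with a ZP domain, astacin proteases, folate receptors and the oviductal glycoprotein gene Ovgp1. Of these 4 were tested, 0 rose and 2 fell by limma (0 and 3 at an unadjusted p under 0.05), and 0 rose and 0 fell with the factors removed. Tll1, an astacin protease, fell from 7.48 ± 1.24 to 3.65 ± 0.118 FPKM, but was not called once the factors were removed (adjusted p = 0.08402), and Mep1b fell from 10.2 ± 1.35 to 7.62 ± 0.383 FPKM. The Mep1b call was lost in 5 of 6 single omissions (adjusted p up to 0.156), and its change turned to 0.14 on the log2 scale with the factors removed. Tgfbr3 was at 15.4 ± 1.55 FPKM in WT and 11.7 ± 1.88 FPKM in KO (limma adjusted p = 0.0569).

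Genes of the sperm's side of binding served as a comparison. Izumo1, the sperm ligand of JUNO, had a mean of 0.0866 FPKM in WT and 0.0457 FPKM in KO, and 5 of 11 such genes were listed at 0 in every library, Acr, Tmem95, Adam1b, Adam2 and Adam3. Of 3 tested, 0 rose and 2 fell by limma (0 and 3 at an unadjusted p under 0.05), and 0 rose and 1 fell with the factors removed. Spam1, a hyaluronidase, fell from 26.3 ± 1.63 to 14.4 ± 2.12 FPKM, but was not called once the factors were removed (adjusted p = 0.134), and Zp3r fell from 5.23 ± 1.06 to 1.88 ± 0.0951 FPKM. Zpbp2 was at 6.08 ± 2.75 FPKM in WT and 3.38 ± 0.729 FPKM in KO and was not called.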

How the data were processed

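RNA with poly(A) tails from 10 oocytes per library was measured. Per the labels' protocols, cDNA was made by Smart-seq2 in a buffer holding ERCC spike-in RNA. Build mm9, Cufflinks 2.2.1 and TopHat2 2.1.1 are named per the submitters' processing notes. The authors deposited FPKM for each symbol after spike-in normalization, whose formula the sources used do not give. A search of 373 fractions for the one giving back values of 6 significant digits (tolerance 0.01 of the last digit) found 2 for WT and 4/3 for KO, for 100% of values of at least 1 FPKM.

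Genes averaging 1 FPKM or more (12029) were tested on log2(FPKM + 1), which understates changes of low genes, with limma 3.58.1 in R 4.3.3 (intensity trend, two-sided, Benjamini-Hochberg over all genes, adjusted p under 0.05). The procedure was tested on simulated data without a scaling difference between the genotypes, so that test does not bear on the scaling. Exact permutation tests were two-sided. Python 3.11.15 was used otherwise. Genes named beside the 6 members were those of smallest p in each list (up to 3), those of a direction with 5 or fewer calls, and the 3 of closest pattern per member, of which 1 is not reported here. Genes not called, relatives and markers at 0 were named after their values were seen. The members and lists were chosen with earlier results of these data known. The alternatives were other pseudocounts and filters, 3 rescalings, no trend, a replicate block and the omission of each library. Promoters came from RefSeq, in a build other than that of the values. Protein sequences were not used here.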

Additional observations from a re-analysis of the deposited data

How the results depend on the processing

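Zp1 kept its direction and its call under 15 alternatives (log2 fold change −1.22 to −0.53), but not with the factors removed and without KO 3. Rescaling moved the counts: genes lower went from 6501 to 3107 with equal totals, 2606 with median ratios and 2161 with the genotype factors removed, and genes higher from 1118 to 2283, 2746 and 3097. With genes averaging 10 FPKM or more, 490 were higher; there fewer genes are tested. Of the 6 members, 5 were lower as deposited, 2 with equal totals, 1 with median ratios and 1 with the factors removed, where 1 was higher against 0 as deposited. Cd9 turned positive under all 3 rescalings (0.36 with equal totals, 0.44 with median ratios, 0.51 with the factors removed, 0.64 also without KO 2), and Folr4 under 2 of them (0.112 with the factors removed and 0.0412 with median ratios; over single omissions with the factors removed 0.101, 0.118 and 0.116 without WT 1, 2 and 3, and 0.136, 0.0462 and 0.152 without KO 1, 2 and 3). Lhx8 turned to 0.019 and Mep1b to 0.141 with the factors removed, and Mep1b to 0.0129 with equal totals and 0.087 with median ratios. Pseudocounts of 0.1 and 5, no filter, no trend and each library left out changed no call of the 6 genes as deposited. The summed share of the 6 genes, at a KO to WT ratio of 0.789, lay between 0.737 and 0.855 over the omissions of WT 3 and WT 1. Of 105 ratio alternatives 101 kept their direction; the exceptions were Zp1 to Astl and Zp2 to Astl, whose groups overlap.

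The groups share replicate numbers, but deviations from the group means correlated by only 0.141, −0.099 and 0.038 for numbers 1, 2 and 3, and not every library correlated best with its own number, so the numbers were not taken to pair the libraries. With a replicate block 6432 genes were lower and 1108 higher, and 5 members were lower. With the block and the factors removed, added after seeing the data, 1977 were lower and 3016 higher, 2 members were lower and 1 higher, Cd9 was at 0.51 and Folr4 at 0.11. The combinations with the factors removed, and the omissions for closest patterns, were also added after seeing the data. Read depth is unknown, so counting error per value cannot be given, and each genotype carries 1 factor, so spike-in error between replicates is not in the spread. Any error in the KO to WT ratio of these factors is likewise in no p-value or confidence interval of the deposited values.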
